A study of Arabidopsis thaliana with 32 samples.

Results

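This account covers 25 of the 10816 features of a flower-enriched Arabidopsis thaliana cDNA array, those whose ratio was raised at 22 h but not, on average, at 2 to 6 h or at 10 to 12 h. They were selected on the log2 ratios of 24 arrays. The mean of the 12 arrays at 2, 4 and 6 h (the early mean) had to lie under 0.25, and so did the mean of the 8 arrays at 10 and 12 h (the middle mean). The mean of the 4 arrays at 22 h had to reach 0.6, with all 4 values above 0. At least 10, 7 and 4 values were required in the 3 means, and 10359 features had them. Values at 2 to 6, 10 to 12 and 22 h are therefore given as a description, without a test. The arrays at 0 h and 8 h took no part in the choice.

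Each array compared callus of 35S:LFY-GR plants treated with dexamethasone with callus of the same line given a control solution for the same time, on 4 arrays at each of 8 time points from 0 to 22 h. All the tissue carried the transgene, in which LEAFY is fused to the glucocorticoid receptor and driven by the 35S promoter. Per the labels the callus came from root explants. Replicates 1 and 3 had the treated RNA in channel 2, and replicates 2 and 4 had it in channel 1. Whether the 4 arrays of a time point are separate cultures or dye swaps of the same RNA is not labelled, so p-values rest on array-to-array spread alone, and that spread may be technical.

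LEAFY is a plant transcription factor that commits the cells of a young meristem to forming a flower, and it acts upstream of the genes that specify floral organs. The steroid-binding part of the receptor keeps the fusion protein out of the nucleus until dexamethasone is added. Genes that LEAFY binds can then respond early, while genes that depend on the products of those targets, or on cells that have begun to differentiate, can respond late. The files give plate positions and no gene names, so none of the 25 features could be assigned to a gene, a role or a sequence, and neither the tissue nor the transgene could be checked by marker genes. Different features can be clones of 1 transcript.

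Positive log2 ratios likely stand for more RNA after dexamethasone than after the control solution. This takes channel 2 as the numerator of the deposited ratio, a convention that no label states. With channel 1 as the numerator every sign exchanges and the 25 features are those lowered at 22 h. Between arrays at 22 h the deposited ratios correlated across features at 0.285 on average within an orientation and at -0.255 between orientations, before the swapped arrays were turned. At 8 h these means were 0.206 and -0.0642. Between 10646 and 10809 features had a value on an array. Precision is limited by the number of arrays. Replicate 2 at 8 h had the most values at the limits of the scale (a ratio of 100), with 489. Replicate 2 at 2 h had 334, replicate 3 at 4 h 324 and replicate 1 at 10 h 266, while the 4 arrays at 22 h had 22 to 160 and those at 0 h 15 to 32. Limit values were left out.

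At 22 h the members' mean log2 ratios ran from 0.60 to 1.46, with a median of 0.66, which is 1.52-fold to 2.75-fold with a median of 1.58-fold. Most lay near the threshold, with 14 members under 0.7 and 2 at 1 or more. Of the 100 values at 22 h, 56 were at 0.6 or more and 14 were under 0.3. In 11 members all 4 arrays gave 0.3 or more, and in 9 members at least 1 array gave less than 0.15.

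**Figure D1:**
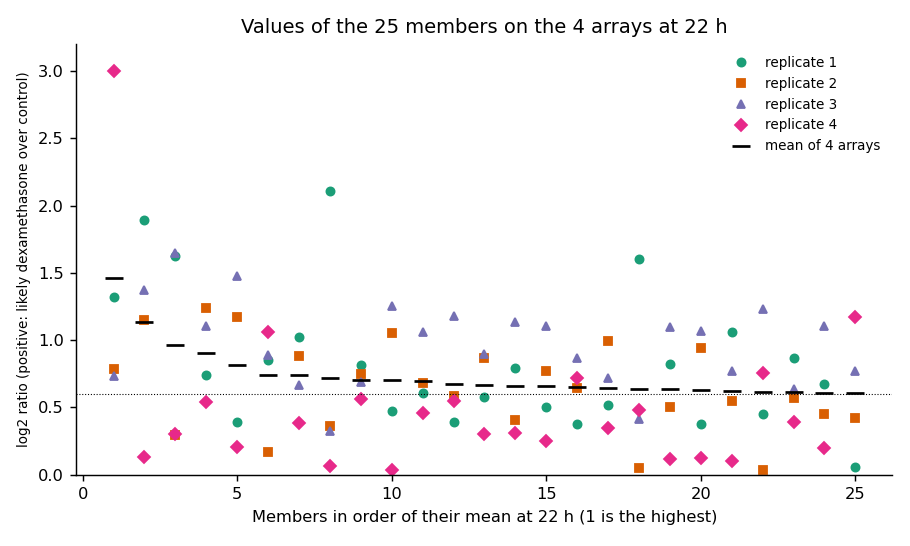
Log2 ratios of the 25 members on the 4 arrays at 22 h, in order of their mean. Marks are single arrays, bars are means of 4 arrays and the dotted line is the threshold of 0.6. Replicate 4 gave the lowest value in 17 members, and the highest single value, 3.0, belongs to the first member.

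The feature with the highest mean, GP035D10, had 1.32, 0.78, 0.73 and 3.0 on replicates 1 to 4 at 22 h, a mean of 1.46 ± 1.06 (SD, n = 4). One array carried much of it, since the mean of the other three values was 0.95. GP035D10 also varied widely at earlier times and had 3 limit values left out, at 4, 8 and 10 h. It was low at 2 h (-1.19 ± 1.42, n = 4) and high at 4 h (0.67 ± 0.59, n = 3) and 6 h (0.66 ± 1.42, n = 4). The mean at 12 h was -0.38 ± 1.38 (n = 4). At 4 and 6 h it thus reached the level asked for at 22 h, and its early mean stayed under 0.25 through the negative values at 2 h. It was the 1 member with a mean of 0.6 or more at another time point, so "raised only at 22 h" does not describe it.

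GP117E3, the second, had 1.89, 1.15, 1.37 and 0.13 on replicates 1 to 4 at 22 h, a mean of 1.14 ± 0.74 (SD, n = 4). Replicates 1 to 3 were high and replicate 4 was near 0. On the 3 arrays with a value at 0 h it had -0.29, -0.22 and 0.59, and at 12 h it had 0.23, 0.11, -0.22 and 0.09. Replicate 4 at 22 h lay within the range of both sets of arrays, while the other 22 h arrays lay above them. Between 2 and 12 h its means stayed between -0.49 and 0.05.

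The third member by mean differed by orientation. It had 1.62 and 1.65 on replicates 1 and 3 and 0.30 and 0.30 on replicates 2 and 4, so that both arrays with the treated RNA in channel 2 lay above both with it in channel 1. The same order held in 7 of the 25 members, or 28%, and the opposite order in 0. Among the 277 other features raised at 22 h by the same threshold, these shares were 26.0% and 7.94%. The dye term of the fit, which is the part of the ratio that follows the channel, was positive in 20 of the 25 members with a median of 0.09, and positive in 56.3% of all features tested with a median of 0.02. Each 22 h mean holds 2 arrays of each orientation, so a dye effect that is the same on all arrays cancels in it. For the same reason the fitted 22 h ratio has to equal the mean in all 25 members, which is no separate check. A dye effect that differs between arrays would not cancel, and it was not tested.

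The ninth member was the most even, with 0.82, 0.75, 0.69 and 0.56 on replicates 1 to 4, a mean of 0.71 ± 0.11 (SD, n = 4). These spanned less than its values at 8 h, which were 0.59, 0.26, -0.27 and -0.05, and the highest 8 h value lay just above the lowest at 22 h. The eighth member was the least even after GP035D10, with 2.11 on replicate 1 and 0.36, 0.32 and 0.07 on the others. Over the 25 members the mean fell below 0.6 in 18 when the highest of the 4 arrays was left out, and the lowest such mean was 0.25. The median SD between the 22 h arrays was 0.39 for the members, 0.38 for the 277 other raised features and 0.29 for all features tested.

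The arrays were not equal contributors. The median of the members was 0.74 on replicate 1, 0.65 on replicate 2, 1.06 on replicate 3 and 0.35 on replicate 4. Replicate 4 was the lowest array in 17 members (68.0%) and replicate 3 the highest in 13. Replicate 4 was also the lowest array in 45.5% of the other raised features, whose medians were 1.24, 0.98, 1.05 and 0.97.

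The threshold at 22 h cut through a dense part of the data. The lowest mean inside was 0.6045 and the highest outside 0.5998, and 21 more features that met the other criteria had a mean from 0.5 to 0.6. On the middle mean the highest value inside was 0.24 and the lowest outside 0.25, with 16 features between 0.25 and 0.35. On the early mean the highest value inside was 0.19 and the lowest outside 0.34. A further 20 features failed for a value at 22 h that was not above 0, and 13 for too few values.

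The same threshold at 22 h was met by 302 features, of which the 25 members were 8.28%. Of the remaining 277, a middle mean of 0.25 or more alone kept out 72, and an early mean of 0.25 or more alone kept out 1. The other 204 were at 0.25 or more in both means. The 277 were also larger at 22 h, with a median of 0.99 and a highest mean of 3.82.

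The members' time course was flat or slightly negative until 12 h. The median of the members per array started at -0.07 ± 0.19 (mean ± SD of 4 arrays) at 0 h. Over 2, 4 and 6 h it was -0.14 ± 0.25, then -0.13 ± 0.20, then -0.21 ± 0.17. At 8 h it was -0.06 ± 0.08, and over 10 and 12 h it was 0.03 ± 0.06 and 0.06 ± 0.14. The last value, at 22 h, was 0.70 ± 0.29. The 22 h value stood outside the range of array medians at each earlier time point, whose highest was 0.23, on replicate 1 at 12 h. At 2 to 6 and 10 to 12 h this gap follows largely from the rule, so nothing is read from it. For the other raised features the same medians were 0.01, 0.19, 0.36, 0.55, 0.67, 0.74, 0.73 and 1.06, so that they had reached about the members' 22 h level by 8 h.

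**Figure D2:**
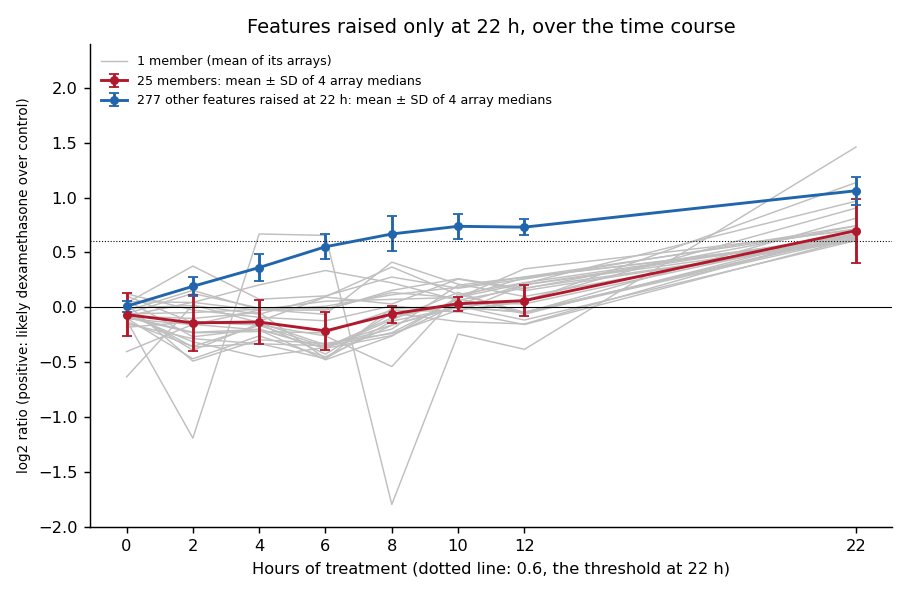
Mean log2 ratio of each member at each time point (grey), with the mean ± SD of the 4 array medians for the 25 members (red) and for the 277 other features raised at 22 h (blue). The members' medians stay between -0.21 and 0.06 up to 12 h and reach 0.70 at 22 h, while the other features climb from 0.19 at 2 h to 1.06.

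Below the threshold the early values were not centred on 0. The early mean was negative in 19 members and ran from -0.39 to 0.19, with a median of -0.19, where the median of all features tested was 0.00. It was under -0.25 in 10 members, or 40.0%, and in 518 of all features tested, or 4.90%. Most of these 10 belong to the group of members that moved together, described below, so they are not separate readings. The median early mean was -0.32 in that group and -0.04 in the other 15 members. At 4 h 22 members had a mean below 0. The middle mean ran from -0.32 to 0.24 with a median of 0.08 and was at 0.2 or more in 6 members. It lay above the early mean in 23 members, as it did in 96.8% of the other raised features and 50.9% of all features tested. No test was made of these values, since the rule used them. At no time point but 22 h did 14 members have a mean of 0.25 or more, and 11 members had one at some other time point.

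The 8 h arrays lie between the early and the middle block and took no part in the choice. Their reading is still not independent of it, since the members had to be low on both sides of 8 h. The dye term and the spread in the fit also came from all 32 arrays, of which 24 chose the members. None of the 25 members was called higher at 8 h by limma, against 2.36% of all features tested. With the replicate block 1 was, the seventeenth by 22 h mean. At an unadjusted p under 0.05, limma had 2 members higher and 2 lower (8% each), against 7.86% and 6.70% of all features tested. One member was called lower, against 0.852% of all features tested. The median ratio of the members at 8 h was -0.05, and their means ran from -1.80 to 0.41, with 15 below 0. The upper limit of the 95% interval at 8 h was below 0.6 in 23 of the 25 members and 0.66 at the highest. That share was not counted over all features tested, whose 8 h means had quartiles of -0.12 and 0.11, so nothing is read from it. Of the 277 other raised features, limma called 158 (57.0%) higher at 8 h and 0 lower, and their median was 0.66. Members and other raised features were told apart by values on either side of 8 h, and their difference at 8 h was not tested.

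The lower call at 8 h was GP055B10, which had -0.17, -1.35, -0.70 and 0.06 on replicates 1 to 4 (-0.54, SE 0.15, adjusted p = 0.0470 by limma). Replicates 2 and 3 were low and the other two were near 0. The feature had -0.01, 0.12, 0.36 and -0.05 at 0 h, and 0.37, 0.65, 0.87 and 0.72 at 22 h. All 4 arrays at 22 h were above every array at 0 h and at 8 h. The call rests on replicate 2 at 8 h, the array with 489 limit values, as without that array the ratio was -0.26 (adjusted p = 0.554). It was also lost in 6 other settings. The ratio stayed at -0.54 with limit values kept (adjusted p = 0.0534), with no dye term (0.0516) and with the 0 h and 8 h arrays alone (0.309). It was -0.49 with arrays scaled (0.0576) and -0.47 without replicate 3 (0.209), and -0.25 without replicate 2 (0.542).

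GP035D10 had the lowest ratio at 8 h, with -1.87, -2.72 and -0.80 on replicates 1, 3 and 4, all 3 below 0, and its value on replicate 2 was at the limit and left out. The fitted ratio was -1.72 (SE 0.57, adjusted p = 0.106 by limma) and did not pass the threshold. It passed with the replicate block (adjusted p = 0.00127), with the arrays averaged as dye swaps (0.0155), with the 0 h and 8 h arrays alone (0.0389) and without replicate 2 (0.0332). With limit values kept it was -3.01 (adjusted p = 0.107).

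GP009C1 had 0.42, -0.20, -0.38 and -0.89 on replicates 1 to 4 at 8 h, a ratio of -0.26 (SE 0.23, adjusted p = 0.689 by limma). Its arrays lay on both sides of 0 at 8 h, as they did at 2, 4, 6, 10 and 12 h. At 22 h it had 1.6, 0.05, 0.42 and 0.48, so that replicate 1 was high and replicate 2 near 0. Without replicate 1 its mean at 22 h would be 0.32. GP117E3 at 8 h had -0.77, -0.24, 0.30 and -0.25, a ratio of -0.24 (SE 0.22, adjusted p = 0.712 by limma).

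The highest ratios at 8 h belonged to the seventeenth and the fourteenth member by 22 h mean. The seventeenth had 0.24, 0.98, 0.20 and 0.22 at 8 h, a mean of 0.41 ± 0.38 (SD, n = 4, adjusted p = 0.0555 by limma). With the replicate block it was called (adjusted p = 0.0176). All 4 arrays were above 0, and the highest was replicate 2. It had 0.52, 1.0, 0.72 and 0.35 at 22 h, so its arrays at 8 h and 22 h overlapped. The fourteenth had 0.12, 0.24, 1.06 and 0.04 at 8 h, a mean of 0.37 ± 0.47 (adjusted p = 0.154 by limma), of which replicate 3 was the high value. These 2 and 1 more member had an 8 h mean of 0.25 or more.

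At 0 h the members showed no call. Limma called 0 of the 25 and 0% of all features tested, with 1 of the 25 (4.00%) and 293 of all (2.77%) at an unadjusted p under 0.05. The median ratio was -0.07, the means ran from -0.63 to 0.12, and 6 were above 0. The other 19 (76%) were below 0, against 43.3% of the other raised features and 50.2% of all features tested. No test was made of this share. The lowest mean was that of the eighth member, with -0.92, -0.44, -0.33 and -0.84, all 4 below 0. The difference between 8 h and 0 h was called by limma in 0 of the 25 members, against 0.804% of all features tested. At an unadjusted p under 0.05 these were 3 members (12%) and 8.23% of all features tested. Among the other raised features 61 (22.0%) were called higher at 8 h.

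**Figure D3:**
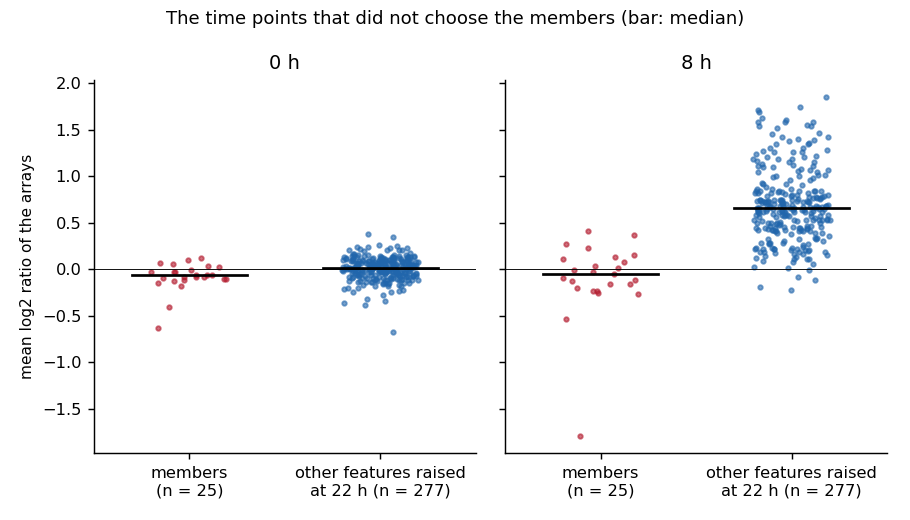
Mean log2 ratio of single features at 0 h and 8 h, the time points that did not choose the members, for the 25 members and the 277 other features raised at 22 h (bars are medians). The medians are -0.07 and 0.02 at 0 h, and -0.05 and 0.66 at 8 h.

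The 22 h arrays were compared with these background arrays member by member. In 15 members all 22 h values were above all 0 h values, which held in 3.81% of all features tested. In 9 members they were above all 8 h values, against 1.36% of all features tested. In 16 members the 22 h and 8 h values overlapped. In 2 members every 22 h value was above every value at all other time points, against 0.35% of all features tested. The rule asked for high values at 22 h, so nothing is read from these counts. Of the members' 99 values at 8 h, 4 were at 0.6 or more (4.04%, against 5.58% over all features tested), and of the 99 at 0 h 2 were (2.02% against 2.77%). The members' SD between arrays had a median of 0.38 at 8 h and 0.26 at 0 h, against 0.27 and 0.23 over all features tested.

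To read the 22 h ratio on arrays that had not chosen the features, the rule was applied to 3 replicates with the same thresholds and at least 7, 5 and 3 values in the 3 means. The 22 h value was then taken from the replicate left out. Without replicate 1 the rule chose 39 features, and their median on replicate 1 was 0.31, with 76.9% above 0. Without replicate 2 it chose 46, with a median of 0.44 on replicate 2 and 82.6% above 0. Without replicate 3 it chose 19, with a median of 0.32 and 73.7% above 0. Without replicate 4 it chose 42, with a median of 0.18 and 73.8% above 0. The features' own means over the 3 arrays in the rule had medians of 0.69 to 0.77. On the 4 arrays read, all features with enough values had medians of -0.04 to 0.01, with 44.9% to 51.6% above 0.

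The ratio on the array left out was thus positive in most features but smaller than on the arrays that chose them. The arrays in the rule then held unequal numbers of each orientation, so a dye effect would not cancel in their mean. Its share in the difference was not tested. The ratio on the array left out reached 0.6 in 23.1%, 37.0%, 36.8% and 11.9% of the features chosen without replicates 1, 2, 3 and 4. Over all features with enough values it did so in 8.39%, 5.47%, 5.88% and 6.56%. Should the arrays form dye-swap pairs (1 with 2 and 3 with 4), the array left out would share its RNA with an array in the rule. With the rule on replicates 1 and 2 alone, 64 features were chosen, and their median was 0.34 on replicate 3 and 0.12 on replicate 4. With the rule on replicates 3 and 4 alone, 78 features were chosen, and their median was 0.31 on replicate 1 and 0.28 on replicate 2.

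**Figure D4:**
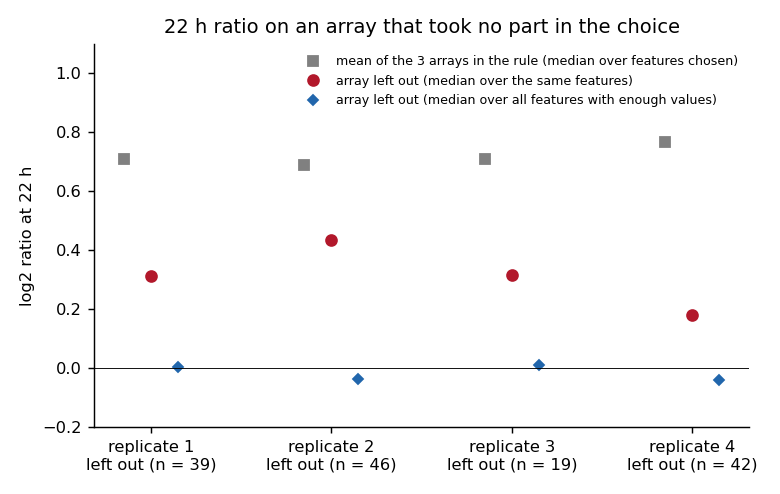
Median log2 ratio at 22 h when the rule is applied to 3 replicates and the fourth is read. Grey squares are the features' means on the 3 arrays in the rule (0.69 to 0.77), red circles their values on the array left out (0.18 to 0.44), and blue diamonds all features with enough values on that array.

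Some members varied together from array to array. Deviations from the time-point mean were correlated between members over the 32 arrays, which share their dyes and RNA. Of the 300 pairs of members, 22 (7.33%) correlated at 0.7 or more, against 0.459% of all pairs of the 10359 features. The rule chose the members on 24 of these 32 arrays, so members and all features are not on equal terms. Nothing is read from the difference between these shares, with or without the dye term. Joining members through such pairs gave 1 group of 10 members, 1 of 2, and 13 that joined no other. Within the group of 10 the correlations ran from 0.40 to 0.90 with a median of 0.69. With the dye term removed the median was 0.64, and 14 pairs of members (4.67%) reached 0.7, against 0.280% of all pairs. On the 8 arrays at 0 h and 8 h alone a correlation is far less precise. There the correlations within the group had a median of 0.59 and a lowest value of -0.03. These 8 arrays are among the 32 that formed the group, so this is not a separate reading of it. On them 29 pairs of members (9.67%) reached 0.7, against 6.44% of all pairs. The grouping was made after the values had been seen and carries no test.

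The 10 members that moved together lay on 10 different plates and included GP117E3. Each had a negative early mean, from -0.39 to -0.23, whereas the other 15 members had early means from -0.28 to 0.19, of which 9 were below 0. The median of the 10 was 0.12, -0.96, -0.12 and -0.33 on replicates 1 to 4 at 2 h, with replicate 2, the array with 334 limit values, far below the others. At 6 h it was -0.20, -0.67, -0.19 and -0.59, so that all 4 arrays were below 0 and the 2 with the treated RNA in channel 1 were the lower. At 22 h it was 0.55, 0.86, 1.11 and 0.20, with all 4 above 0. Of the 10, 9 had their lowest 22 h value on replicate 4 and 8 their highest on replicate 3. At 0 h their median was 0.00, -0.21, 0.34 and -0.40, a spread of the same order as that at 22 h, though around 0. The dye terms of the 10 had a median of 0.12 and those of the other 15 one of 0.05.

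The other 15 members had medians of 0.86, 0.55, 0.77 and 0.39 on replicates 1 to 4 at 22 h. At 2 h they had 0.23, -0.26, -0.11 and -0.06, with both signs among the arrays. Their array medians averaged 0.11 ± 0.19 and 0.16 ± 0.11 at 10 and 12 h, and 0.64 ± 0.21 at the last time point, 22 h. In the group of 10 these were 0.01 ± 0.13, -0.06 ± 0.22 and 0.68 ± 0.39. At 0 h, outside the rule, they were -0.08 ± 0.03 for the 15 and -0.07 ± 0.32 for the 10.

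**Figure D5:**
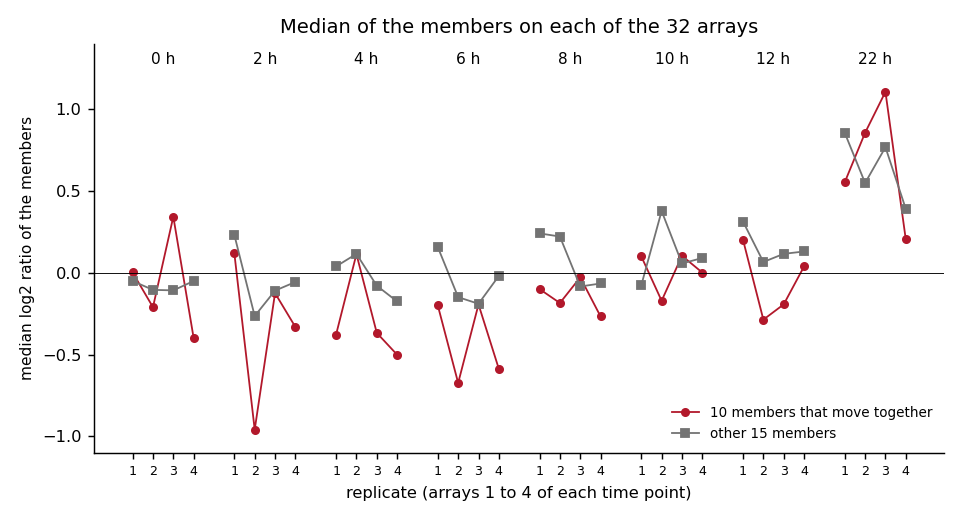
Median log2 ratio on each of the 32 arrays for the 10 members that move together (red circles) and the other 15 (grey squares), by time point and replicate. The 10 lie below 0 on all 4 arrays at 6 h (-0.20 to -0.67) and above 0 on all 4 at 22 h (0.20 to 1.11).

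The members were spread over the clone collection. They came from 21 of the 114 plates, with 4 plates holding 2 members each and none more. All 8 plate rows and all 12 plate columns held members, with at most 5 (20%) in a row, where each row holds 12.5% of all features. None of the members lacked a value on any array as deposited, and 2 had values at the limit, 4 in all.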

How the data were processed

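The deposited values were log10 ratios of the 2 channels of an array, 1 per feature. Per the labels, the authors analysed the arrays with Rosetta Resolver. Not given in the sources used here were the background correction, the normalization, the dyes and the numerator of the ratio, and no scanner signals were used. Ratios were multiplied by 3.32 to log2, those of replicates 2 and 4 were turned, and 3381 values at a limit (absolute log10 ratio of 2, 0.982% of all) were set missing. All 10816 features kept their plate identifiers, of which 0 matched the gene table, so the planned gene and marker lists were not tested. A linear model was fitted to 10567 features with limma 3.58.1 in R 4.3.3, with 1 coefficient per time point and 1 dye term, on all 32 arrays. A feature needed at least 1 value per orientation and time point. P-values were two-sided and adjusted by Benjamini-Hochberg over all features, with a threshold of 0.05. The fit was also run on simulated independent normal noise with known changes at 8 h. That noise had no dye effect and no missing values, so nothing about the calls given here is read from it. Alternatives were limit values kept, other dye, block, centring and scaling choices, fewer arrays, a stricter threshold and other thresholds of the rule. The members and comparisons were chosen with earlier results of these data known. At most 4 identifiers were named, the 2 members with the highest 22 h mean and the next 2 with the lowest 8 h mean.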

Additional observations from a re-analysis of the deposited data

Results flagged for a closer look

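Among 36 groups of 4 arrays, the medians of the members and the 4 named features at each time point with 4 values, 1 was past Dixon's critical value of 0.829, where chance gives about 1 in 20, or 1.8. It was GP117E3 at 2 h, where replicate 2 had -1.42, below -0.12 to -0.23 on the other three arrays. The 10 members that moved together, of which GP117E3 is 1, also had their lowest median at 2 h on replicate 2, at -0.96. That array had 334 limit values. The cause was not tested.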

How the results depend on the processing

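All alternatives were fixed with earlier results of these data known. No member was called at 0 h, or for 8 h minus 0 h, in any of the 14 settings tried for each. Calls were rare over all features too, where they were counted in all settings but the adjusted p of 0.01. At 0 h they ran from 0 of 10567 to 9 of 10816 (no filter). For 8 h minus 0 h they ran from 11 of 10409 (without replicate 2) to 159 of 10567 (replicate block). With calls this rare, the absence of a call does not set the members apart. The medians of the members at 0 h and 8 h moved by less than the spread between arrays in all 12 settings tried for them. The count called at 8 h was 1, with 339 of 10567 called over all features. It was 0 with limit values kept (334 of 10732 over all features), with no dye term (262 of 10567) and with arrays scaled (301 of 10567). It was also 0 without replicate 2 at 8 h (187 of 10553) and at an adjusted p of 0.01. With arrays averaged as dye swaps it was 2 (164 of 10567). With the replicate block it was 3: GP035D10 and GP055B10 lower, and the seventeenth member higher (0.41, adjusted p = 0.0176). With 1 replicate left out it was 0 to 1, with 216 to 347 called over all features. Nothing about the members is read from these counts. Same-numbered deviations at 0 h and 8 h correlated at 0.0684, 0.160, 0.172 and 0.295, of which 1 missed the 0.1 asked of every number, so pairing was not settled. The block raised the calls at 8 h over all features from 339 to 590.

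The number of features that meet the rule was 25, and 39, 46, 19 and 42 without replicates 1 to 4, which held 17, 18, 7 and 19 of the members. With arrays scaled it was 8, as 17 members fell under 0.6 at 22 h, whose arrays were divided by 1.09 to 1.29. Other thresholds gave 46 (0.5) and 11 (0.7) at 22 h, and 14 (0.15) and 44 (0.35) for the other means. The mirror rule gave 5, where 62 features met its late threshold, against 25 where 302 met that of the rule. With 0 h or 8 h in place of 22 h it was 4 each, where 7 and 172 features met the late threshold. Read on arrays outside the rule, the 22 h median was 0.18 to 0.44 with 1 replicate left out. It was 0.20 with the rule on replicates 1 and 2, and 0.28 with it on 3 and 4. The features so chosen were other sets than the 25 members, whose median was 0.66. On the arrays in the rule the medians of these sets were 0.69 to 0.77. The cause of these changes was not tested unless stated. Signal over background was not examined.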
